A study of Homo sapiens with 16 samples.

Results

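TRiC (also called CCT) is the cytosolic chaperonin, a double ring in which each ring holds one copy of 8 related subunits in a fixed order. The subunits, TCP1 (the alpha subunit), CCT2, CCT3, CCT4, CCT5, CCT6A, CCT7 and CCT8, are encoded by 8 separate genes. These genes were picked by name, and all 8 were found among the 8344 genes that could be named, out of 20389 coding genes in the annotation. The deposited files list transcript entries by identifier and coding length, so a gene was named by the set of coding lengths of its neighbouring entries, and its most counted entry stood for it. For CCT4 and CCT6A this set was too small to name them alone. They were named by their position, CCT4 between FAM161A and COMMD1 and CCT6A between PSPH and SUMF2, where both of their 2 annotated lengths were found.

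TRiC folds newly made proteins that reach their native state poorly by themselves, above all actins and tubulins, and many proteins with WD40 repeats. Prefoldin hands it unfolded chains, and ATP hydrolysis closes the lid over the chamber. Within a ring, one side (CCT5, CCT2, CCT4 and TCP1) binds and hydrolyses ATP more readily than the other side (CCT7, CCT8, CCT6A and CCT3). Because every ring needs each subunit once, the relative output of the 8 genes is of interest when translation is perturbed.

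The libraries are ribosome profiles, that is, sequenced mRNA fragments protected by ribosomes from RNase I. They come from 4 established human cancer cell lines with no engineered change (labelled WT): NCI-H1650 and NCI-H520 from lung, A375 and Hs 936.T from melanoma. Cells of each line received the solvent DMSO (2 libraries), rocaglamide A (RocA) at 0.3 µM (1 library) or RocA at 3 µM (1 library) for 30 min, which gives 16 libraries. RocA is a plant compound that clamps the initiation helicase eIF4A, and, as the title of the series states, DDX3, onto RNA; eIF4A held on stretches of A and G ahead of the start codon blocks the scanning ribosome. The labels do not say whether the 2 DMSO libraries of a line are separate cultures, so p-values between lines may measure technical spread only. These DMSO pairs also enter the spread behind the RocA intervals and p-values, which therefore do not measure line-to-line spread alone. DMSO replicate 2 and the 3 µM library of NCI-H520 carry the cell-line label NCI-H521 and were grouped by their titles.

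The named genes held 511773 to 2821702 footprints per DMSO library and 44799 to 520843 per RocA library. Levels are given as CPM, counts brought to one common library total after scaling by the trimmed mean of M-values (TMM), so they say how a gene stood relative to others in its library and not whether total translation fell. The lung line NCI-H1650 had the highest sum of 4 epithelial markers (17922 to 26164 CPM) and Hs 936.T that of 4 melanocyte markers (29346 to 58524 CPM), while A375 held 38.7 to 187 CPM of the latter and the highest sum of 4 mesenchymal markers (963 to 1883 CPM). NCI-H520 held 947 and 2343 CPM of melanocyte markers under DMSO and 315 and 713 CPM with RocA, against 137 to 214 CPM in NCI-H1650. NCI-H520 also held 4068 to 7391 CPM of the epithelial markers, against 561 to 969.5 CPM in A375 and 28.4 to 99.1 CPM in Hs 936.T. The only squamous marker named, 1 of 5, was at 0 in every library except the DMSO libraries of NCI-H1650 (5.04 and 3.47 CPM). The source of the melanocyte marker footprints in NCI-H520 was not tested. Each count of subunits called with RocA is given below without that line.

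In the annotation (GENCODE 29, GRCh38) the genes lie on 7 chromosomes. TCP1 is at chr6:159778498-159789749 (minus strand), CCT2 at chr12:69585334-69601570 (plus), CCT3 at chr1:156308968-156367873 (minus) and CCT4 at chr2:61868089-61888804 (minus). CCT5 is at chr5:10249921-10266412 (plus), CCT6A at chr7:56051630-56063989 (plus), CCT7 at chr2:73234236-73253021 (plus) and CCT8 at chr21:29055805-29073797 (minus). The entries that stood for them encode proteins of nearly equal length, from 531 residues for CCT6A to 556 for TCP1. Summed over the libraries they held between 9911 footprints (TCP1) and 28455 (CCT3). The annotation also lists pseudogenes named after 6 of the genes (4 after CCT6A, 2 each after TCP1, CCT4, CCT5 and CCT7, and 1 after CCT8), and reads shared with such copies could be split between them. The testis-expressed copy CCT6B had 0 to 19 footprints per library.

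Since RocA acts on purine stretches, the longest run of A and G in the annotated 5′ UTR is shown for the pair of subunits that rose most and the pair that fell most with RocA. The run is in capitals, read 5′ to 3′ along the mRNA with up to 5 bases on either side, and all 4 lie within 1 exon of the 5′ UTR.
CCT3 (chr1:156338272-156338288, minus strand): gccctGAGGAGGcagcg
CCT5 (chr5:10249921-10249939, plus strand): AAAAAAAAAAAAAAccgga
CCT4 (chr2:61888656-61888673, minus strand): gcggcAAGGAAGGccccc
CCT7 (chr2:73234331-73234356, plus strand): gtctcGGAGAAGAGGGGAGAGtggcg
The run of CCT7 was 16 bases and ended 27 bases ahead of the start codon, longer than or equal to 95.2% of the 5088 tested genes with a 5′ UTR of 10 bases or more. That of CCT5 was 14 bases, all A, at the very start of the annotated transcript and 406 bases ahead of the start codon. CCT4 had 8 bases and CCT3 had 7 bases, and the median gene had 8. A run of 10 or more was found in 3 of the 8 subunits (CCT5, CCT7 and CCT8) and in 32.4% of all these genes. The 5′ UTRs were 141 bases (CCT7) to 420 bases (CCT5) long against a median of 180.0, and the GC content of CCT5 (48.1%) was at the 6.45th percentile. A run longer than the median was thus found in CCT5 and CCT8, which rose, and in CCT7, which fell. Where transcription starts in these lines was not measured, so the run of CCT5 may be absent from its mRNA.

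Under DMSO all 8 subunits held many footprints in all 4 lines. Averaged over the lines, footprint density (CPM per 1000 codons) was highest for CCT3 (3194 ± 1208, SD, n = 4 lines), then CCT5 (2915 ± 868), CCT7 (2802 ± 580.2), CCT4 (2766 ± 392), CCT6A (2413 ± 365), CCT2 (2172 ± 679.9) and CCT8 (2126 ± 646), and lowest for TCP1 (1470.0 ± 696). Each step between neighbours in this order was smaller than the larger SD of the pair. By mean density over the 8 DMSO libraries, the subunits stood at the 93.9th (TCP1) to 97.1st percentile (CCT3) of 5297 genes. By SD, which is not scaled to the mean, CCT6A and CCT4 varied least between lines and CCT3, with the highest mean, varied most.

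Every subunit differed between at least 2 lines under DMSO (edgeR's quasi-likelihood F test over 8 libraries, largest adjusted p = 1.19e-06), as did 91% of the 6300 genes tested there. NCI-H1650 had the lowest level of TCP1, CCT2, CCT3, CCT4, CCT7 and CCT8. CCT5 stood apart, with 899.6 ± 31.5 CPM in NCI-H520 (mean ± SD, n = 2) against 1986 ± 4.09 in A375, 1617 ± 72.7 in NCI-H1650 and 1699.8 ± 33.2 in Hs 936.T. Its level in NCI-H520 was lower by 1.12 ± 0.08 (log2, SE) than in A375, adjusted p = 3.11e-14.

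TCP1 ran the other way between these lines. It reached 1344 ± 17.1 CPM in NCI-H520 against 471 ± 20.8 in NCI-H1650, 629.7 ± 27.4 in Hs 936.T and 772 ± 32.6 in A375, and NCI-H520 exceeded A375 by 0.83 ± 0.08 (log2, SE; edgeR, adjusted p = 1.04e-10). In NCI-H520, CCT5 and not TCP1 was therefore the subunit with the lowest footprint density (1691 ± 59.2 against 2458 ± 31.2 CPM per 1000 codons). CCT3 was also highest in NCI-H520 (2343 ± 61 CPM), but its difference from Hs 936.T (2066 ± 99.3 CPM) did not pass the threshold (log2 0.17 ± 0.08, adjusted p = 0.0582). CCT8 was highest in Hs 936.T (1624 ± 103 CPM), above each of the other lines.

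By pair of lines, the number of the 8 subunits that differed was close to full wherever NCI-H1650 was one of the pair. It was 8 for NCI-H1650 against NCI-H520 (59% of all genes), 7 against Hs 936.T (69.4%) and 8 against A375 (62.5%). Between the other lines it was 6 each time, for NCI-H520 against Hs 936.T (59.9%), NCI-H520 against A375 (55.2%) and Hs 936.T against A375 (64.6%). CCT4 is the subunit that differed in none of these last 3 pairs, with adjusted p between 0.254 and 0.635 and mean levels of 1534.5 to 1626 CPM.

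**Figure D1:**
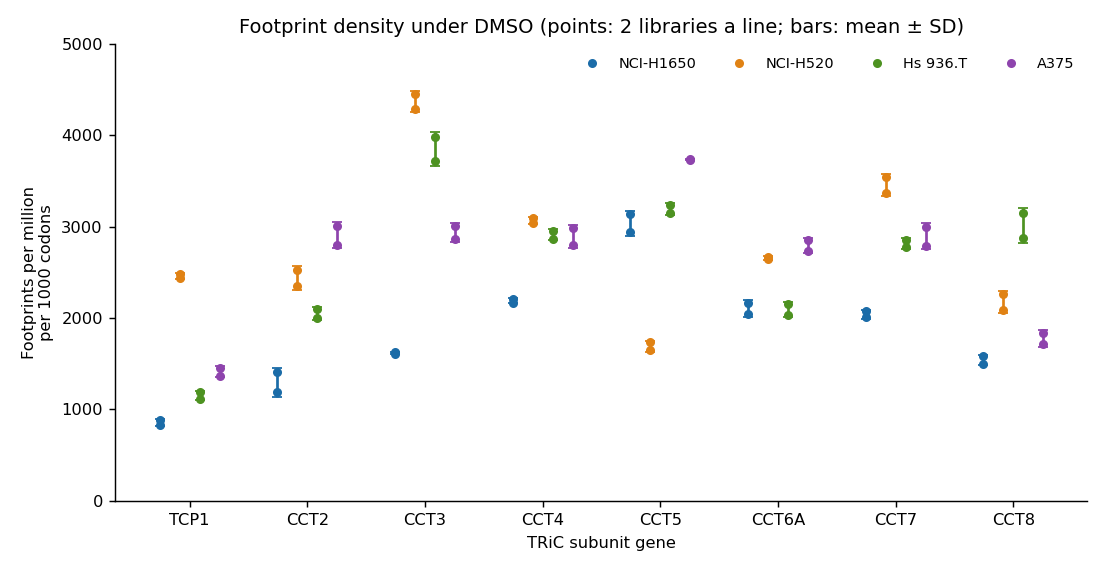
Footprint density of the 8 TRiC subunits under DMSO (vertical axis, CPM per 1000 codons), by subunit and coloured by line; points are the 2 libraries of a line and bars the mean ± SD. CCT5 is lowest in NCI-H520 (1691), where TCP1 is at its highest (2458).

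RocA split the subunits. At 0.3 µM, CCT3, CCT5 and CCT8 rose and CCT4, CCT7 and CCT6A fell relative to the other genes, while CCT2 (log2 0.05) and TCP1 (log2 0.01) did not pass the threshold. At 3 µM the same 3 rose, and the same 3 and TCP1 fell. Over all genes 27.1% rose and 31.5% fell at 0.3 µM, and 24.6% rose and 30.2% fell at 3 µM. The subunits' counts were 3 of 8 higher and 3 of 8 lower at 0.3 µM and 3 of 8 higher and 4 of 8 lower at 3 µM; with 8 genes, nothing particular to the subunits is read from these shares. Rises and falls were both found on the side of the ring that hydrolyses ATP readily (CCT5 up, CCT4 and, at 3 µM, TCP1 down) and on the other side (CCT3 and CCT8 up, CCT7 and CCT6A down). The median log2 change of the subunits was 0.03 at 0.3 µM and -0.32 at 3 µM, against -0.08 and -0.15 over all 5297 genes. Both doses were compared with the same DMSO libraries. How many of all genes lay on one side of their DMSO libraries in every line was not counted. Such patterns below are therefore not read as particular to the subunits. Footprints come from whole cultures without RNA-seq used here, so fewer ribosomes per mRNA, less mRNA per cell and fewer cells that express a gene cannot be told apart.

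**Figure D2:**
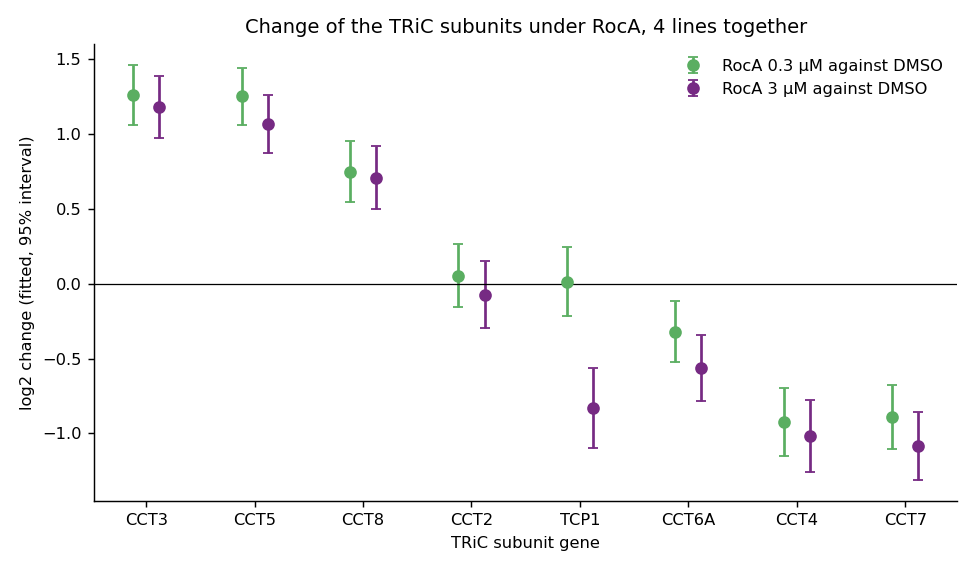
Fitted log2 change (vertical axis) of each TRiC subunit at 0.3 and 3 µM RocA against DMSO over the 4 lines, with 95% intervals. CCT3, CCT5 and CCT8 lie above 0 and CCT6A, CCT4 and CCT7 below 0 at both doses, and TCP1 leaves 0 only at 3 µM.

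On the readily hydrolysing side, CCT5, a subunit whose variants are known from a hereditary sensory neuropathy, rose in every line. Its DMSO libraries held 1565 and 1668 CPM in NCI-H1650, 877 and 922 in NCI-H520, 1723 and 1676 in Hs 936.T and 1989 and 1983 in A375. With 0.3 µM RocA it stood at 3997, 2191, 3722 and 4874 CPM in the same order of lines, and with 3 µM at 2749, 2156, 3519 and 4354 CPM. Each RocA library was above both DMSO libraries of its line, and the low level of NCI-H520 under DMSO was kept below the other lines at both doses. The fitted change was 1.25 ± 0.09 (log2, SE; 2.38-fold) at 0.3 µM and 1.07 ± 0.10 (2.1-fold) at 3 µM, with adjusted p = 3.41e-15 and 1.17e-12 (edgeR, 4 lines).

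CCT4, whose mutation in a rat strain also leads to sensory neuropathy, moved the opposite way. Under DMSO it was at 1171 and 1149.6 CPM in NCI-H1650, 1611 and 1640.0 in NCI-H520, 1567 and 1519.9 in Hs 936.T and 1583 and 1487 in A375. In RocA it was at 624.5, 1053, 725 and 748 CPM at 0.3 µM and at 482, 1102, 591 and 753 CPM at 3 µM. All 8 RocA libraries were below both DMSO libraries of their line, least so in NCI-H520. Over the lines CCT4 changed by -0.92 ± 0.11 at 0.3 µM (adjusted p = 2.54e-09) and -1.02 ± 0.12 at 3 µM (adjusted p = 1.06e-09).

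CCT2, which has been linked to an inherited retinal dystrophy and to the clearance of protein aggregates, stayed near its DMSO level by this measure. DMSO libraries had 741 and 624 CPM in NCI-H1650, 1234 and 1331 in NCI-H520, 1103 and 1052 in Hs 936.T and 1580.5 and 1474.5 in A375. RocA libraries had 742, 1516, 956 and 1603 CPM at 0.3 µM and 535.5, 1561, 875.5 and 1429 CPM at 3 µM. NCI-H520 lay above its DMSO libraries at both doses and Hs 936.T below, and the other lines were above them at 0.3 µM and below at 3 µM. The fitted change was 0.05 (95% interval -0.16 to 0.27) at 0.3 µM and -0.07 (-0.30 to 0.15) at 3 µM. Leaving out NCI-H520 gave -0.29 ± 0.12 at 3 µM, which passed the threshold (adjusted p = 0.038).

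TCP1, the founding member of the family, was the subunit on which the doses differed. Its DMSO libraries were at 485 and 456 CPM in NCI-H1650, 1356 and 1332 in NCI-H520, 649 and 610.3 in Hs 936.T and 795 and 749 in A375. At 0.3 µM it was at 595, 1716.5, 434 and 744 CPM and at 3 µM at 268, 913, 326 and 369.9 CPM. At the lower dose the lung lines were above their DMSO libraries, Hs 936.T was below, and A375 was just below, whereas at the higher dose every line was below.

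Fitted over the lines, TCP1 changed by 0.01 at 0.3 µM (95% interval -0.22 to 0.24) and by -0.83 ± 0.13 (SE) at 3 µM (adjusted p = 9e-07). The step from 0.3 to 3 µM was -0.84 ± 0.15 (adjusted p = 0.000987) and TCP1 was the only subunit called between the doses, where 0.774% of all genes were called higher and 2.19% lower. The other 7 subunits changed by -0.24 to -0.04 between the doses. The 3 µM library of NCI-H1650 held only 15 TCP1 footprints, yet leaving out any single library kept the step between -1.02 and -0.73.

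TCP1 was also the only subunit whose response to RocA differed between the lines by the test fitted here (edgeR F test, adjusted p = 0.0384), a call made for 4.47% of all genes. Its change at 0.3 µM was 0.34 in NCI-H1650, 0.35 in NCI-H520, -0.05 in A375 and -0.53 in Hs 936.T, and at 3 µM -0.81, -0.56, -1.06 and -0.94 in the same order, each from 1 RocA library against the mean of 2 DMSO libraries (log2 CPM). This call was lost without any one of 5 libraries: DMSO replicate 2 of NCI-H520 (adjusted p = 0.0527), either DMSO library of Hs 936.T (0.181 and 0.0632), and the 0.3 µM library of NCI-H520 (0.0889) or of Hs 936.T (0.375). Without the whole line NCI-H520, an alternative chosen after seeing the data, TCP1 had adjusted p = 0.0625 in edgeR's test and was no longer called. The other 7 subunits had adjusted p from 0.119 (CCT3) to 0.869 (CCT5) in this test, and with DESeq2's likelihood ratio test CCT3 passed as well (adjusted p = 0.00489).

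On the other side of the ring, CCT3 rose about as much as CCT5. Its DMSO libraries held 862 and 870.5 CPM in NCI-H1650, 2300.1 and 2386 in NCI-H520, 2136 and 1995 in Hs 936.T and 1612 and 1535 in A375. RocA libraries held 2013, 7112, 4443 and 3444 CPM at 0.3 µM and 1589, 7067, 4448 and 3240.1 CPM at 3 µM. Every RocA library was above its DMSO libraries, and NCI-H520 reached the highest value of any subunit in any library. The fitted change was 1.26 ± 0.10 (2.40-fold; adjusted p = 1.65e-14) at 0.3 µM and 1.18 ± 0.10 (2.27-fold; adjusted p = 4.29e-13) at 3 µM, and by line it ran from 0.87 (NCI-H1650, 3 µM) to 1.60 (NCI-H520, 0.3 µM).

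CCT8 rose less. Under DMSO it was at 853 and 808 CPM in NCI-H1650, 1127 and 1218 in NCI-H520, 1696.5 and 1551 in Hs 936.T and 993 and 923 in A375. At 0.3 µM it was at 1322.5, 2432, 2393 and 1584 CPM, and at 3 µM at 1392, 2409.6, 2391 and 1369 CPM. All 8 RocA libraries were above their DMSO libraries. Over the lines CCT8 changed by 0.75 ± 0.10 (1.68-fold; adjusted p = 1.83e-08) at 0.3 µM and 0.71 ± 0.10 (1.63-fold; adjusted p = 1.67e-07) at 3 µM.

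CCT7 fell in every line. DMSO libraries had 1071.5 and 1109.7 CPM in NCI-H1650, 1798 and 1889.8 in NCI-H520, 1526 and 1481.5 in Hs 936.T and 1603 and 1492 in A375. RocA libraries had 580.4, 1036, 751 and 874 CPM at 0.3 µM and 571, 989, 557.5 and 765 CPM at 3 µM. No RocA library reached the lower DMSO library of its line. Over the lines CCT7 changed by -0.89 ± 0.11 (adjusted p = 1.1e-09) at 0.3 µM and -1.08 ± 0.11 (adjusted p = 5.17e-11) at 3 µM.

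CCT6A, which has the related copy CCT6B, fell least among those that fell at both doses. Under DMSO it was at 1066.5 and 1132 CPM in NCI-H1650, 1379.7 and 1395 in NCI-H520, 1123 and 1063 in Hs 936.T and 1489 and 1427 in A375. At 0.3 µM it was at 845, 1287, 864.5 and 1066 CPM and at 3 µM at 589, 1102, 752 and 935.5 CPM. These values were all below the DMSO libraries of their line, by a small margin in NCI-H520 at 0.3 µM. The fitted change was -0.32 ± 0.10 (adjusted p = 0.00606) at 0.3 µM and -0.56 ± 0.11 (adjusted p = 2.41e-05) at 3 µM, and without A375 the first no longer passed (-0.28 ± 0.13, adjusted p = 0.0717).

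**Figure D3:**
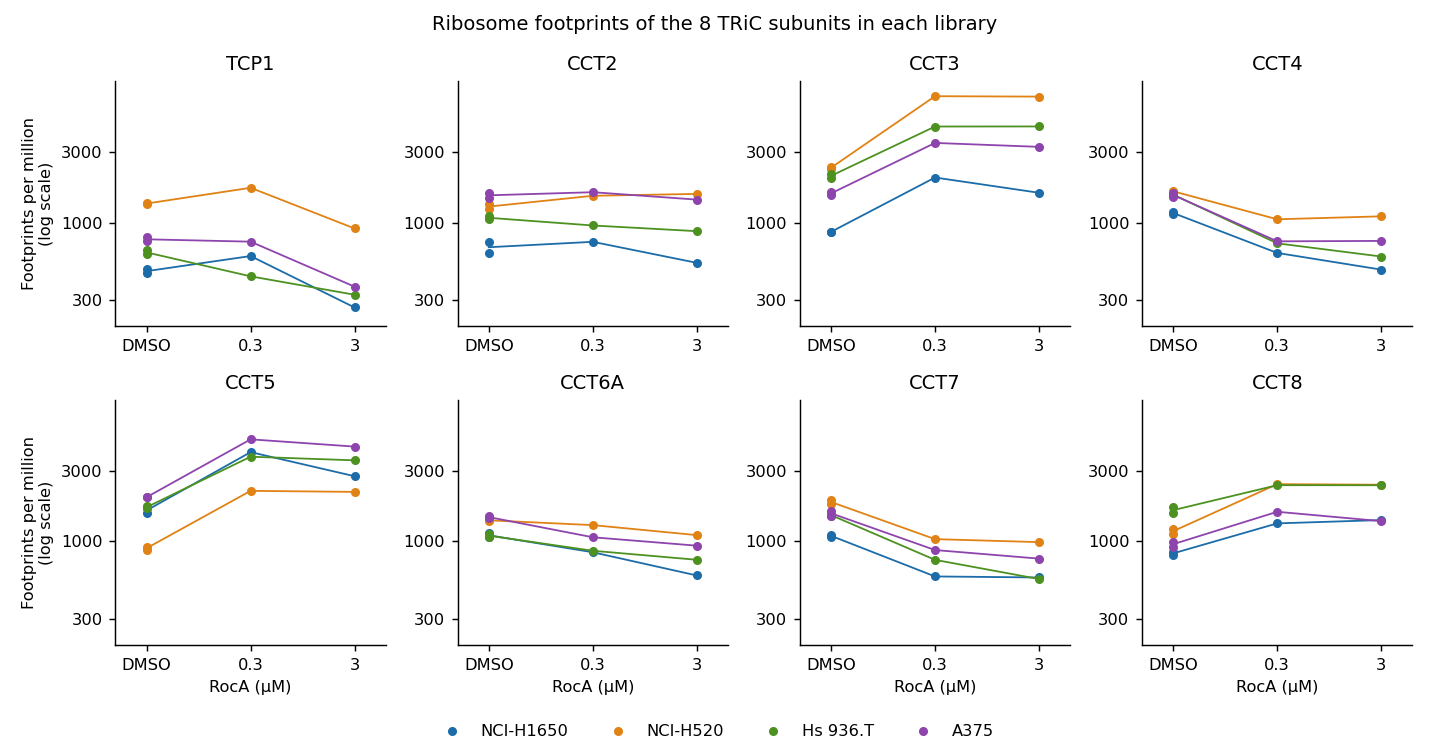
CPM (log axis) of each TRiC subunit by RocA dose; each point is 1 library, colours are lines, and lines join the DMSO mean to the RocA libraries. CCT3, CCT5 and CCT8 stand above DMSO and CCT4, CCT6A and CCT7 below it in all 4 lines, and TCP1 is lower at 3 µM than at 0.3 µM in each. How many of all genes do the same was not counted.

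Without the line NCI-H520, 3 subunits rose and 3 fell at 0.3 µM, and 3 rose and 5 fell at 3 µM, the added one being CCT2. Between the doses 1 subunit, TCP1, was called without that line, at -0.83 ± 0.18 (adjusted p = 0.00797). Without the libraries labelled NCI-H521 the counts were 3 and 3 at 0.3 µM and 3 and 4 at 3 µM. Scaling to library totals in place of TMM moved the median of all genes by -0.26 (log2) at 0.3 µM and -0.21 at 3 µM. With it 3 subunits rose and 5 fell at each dose, since CCT2 (-0.21 at 0.3 µM and -0.29 at 3 µM) and TCP1 (-0.26 at 0.3 µM) then passed as lower. The directions of the other 6 subunits were the same under both scalings.

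Because some subunits rose and others fell, the make-up of the TRiC footprints shifted. The ratio of the highest to the lowest subunit density within a library was 2.57 to 3.76 in the 8 DMSO libraries and 6.74 to 13.9 in the 8 RocA libraries. The coefficient of variation over the 8 subunits was 26.7% to 38.8% with DMSO and 80.5% to 94.7% with RocA. Neither range overlapped between DMSO and RocA. Over all genes 27.1% rose and 31.5% fell at 0.3 µM, and 24.6% rose and 30.2% fell at 3 µM. Other sets of 8 genes were not compared, so the wider spread is not read as particular to the subunits. The sum over the 8 subunits was higher with RocA than with DMSO in every line, and was 7817 ± 2.57 CPM (mean ± SD, n = 2) in NCI-H1650 under DMSO and 10719.8 and 8175 CPM at 0.3 and 3 µM. In NCI-H520 it went from 11898.5 ± 304 to 18344 and 17299 CPM, in Hs 936.T from 11237 ± 406 to 14288 and 13459 CPM, and in A375 from 11357 ± 405 to 14936 and 13216 CPM. The 3 µM sum of NCI-H1650 rests on 458 footprints, and 2 DMSO libraries measure the spread poorly. Its small rise at that dose is therefore not secure. Without TMM the rise was smaller. As a share of all named-gene footprints the 8 subunits held 0.885% and 0.881% under DMSO and 1.11% and 1.02% with RocA in NCI-H1650, and 1.17% and 1.22% against 1.39% and 1.27% in NCI-H520. The same shares were 1.19% and 1.14% against 1.26% and 1.23% in Hs 936.T, and 1.26% and 1.22% against 1.37% and 1.28% in A375. In A375 the share at 3 µM thus lay close to the higher DMSO share.

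As shares of the summed footprint density (CPM per 1000 codons) of all 8 subunits, CCT4 and CCT7 were the most even under DMSO. CCT4 took 13.5% to 15.0% in the 8 DMSO libraries, 5.03% to 5.86% at 0.3 µM and 4.42% to 6.42% at 3 µM. CCT7 took 13.2% to 15.6%, then 5.25% to 5.84% and 4.14% to 6.98%. CCT3 went from 10.9% to 19.6% under DMSO to between 18.7% and 40.7% with RocA, and within each line it took a larger share with RocA than with DMSO. CCT5 took 12% to 37.4% with RocA, the lowest values being those of NCI-H520, where CCT3 took 38.7% and 40.7%. TCP1 took 2.37% to 5.15% at 3 µM, against 5.43% to 11.3% under DMSO.

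**Figure D4:**
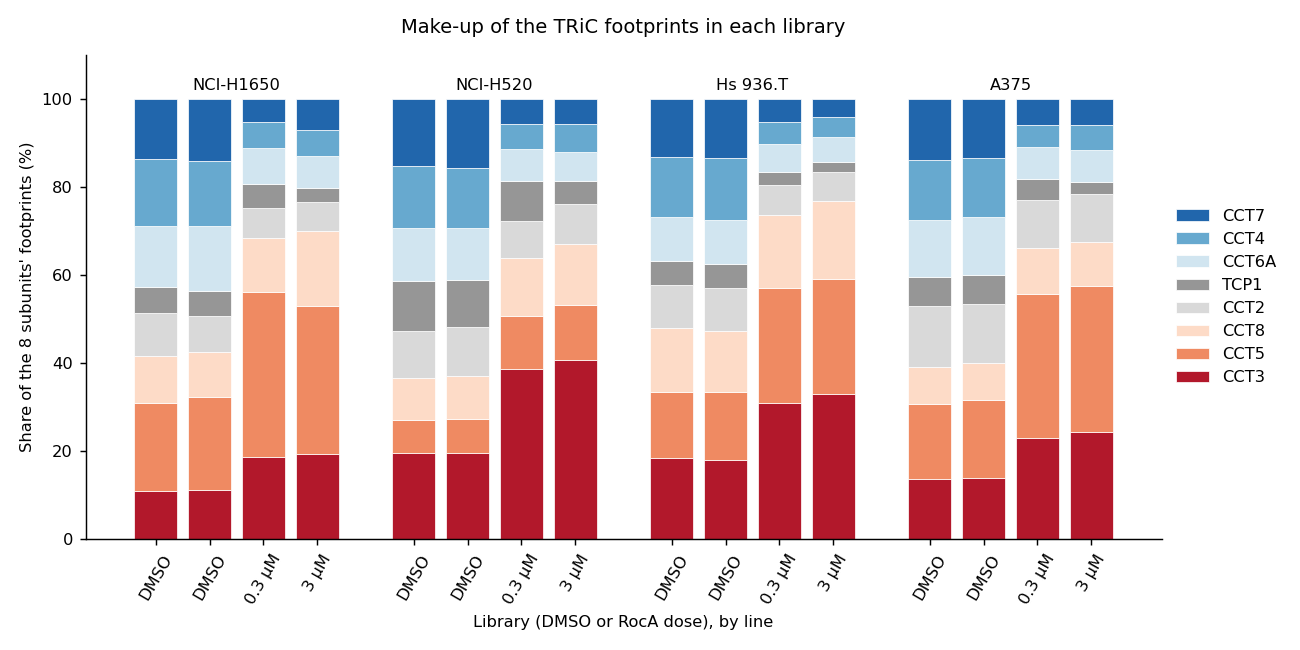
Share of the summed footprint density (CPM per 1000 codons) of all 8 TRiC subunits that each took in a library (stacked bars, percent), by line and dose. With RocA, CCT3 and CCT5 take a larger part in every line and CCT4 and CCT7 fall from 13.2% or more to 6.98% or less.

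For CCT2, CCT3, CCT5 and CCT7 the files also hold a shorter entry whose coding sequence is the same except that it begins at codon 48, 46, 39 and 45 of the full one, so the footprints that only the full entry counted lie near the start codon. Each entry leaves out 10 codons, and the sources used here do not say which, so the boundary is approximate. With RocA a larger part of the footprints of all 4 subunits lay in this first stretch. For CCT2 the share was 6.35% to 8.45% in the 8 DMSO libraries (median 7.02%), 23.1% to 31.7% at 0.3 µM and 26.7% to 40.5% at 3 µM. For CCT7 it was 4.86% to 8.24%, then 14.5% to 30.4% and 25% to 29.6%. In both genes each RocA library was above all DMSO libraries.

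CCT3 and CCT5, which rose, shifted less in percentage points than CCT2 and CCT7. CCT8, which also rose, could not be measured in this way. No link to the direction of change is read from so few subunits. The share of CCT3 was 6.57% to 10.8% under DMSO, 14.8% to 19.0% at 0.3 µM and 18.1% to 24.0% at 3 µM, and that of CCT5 was 4.29% to 6.45%, then 10.7% to 17.2% and 11% to 22%. Here too no RocA library overlapped the DMSO libraries. How often this held among other genes was not counted. Counts were small in places: the NCI-H1650 library at 3 µM had 8 of 30 CCT2 footprints and 8 of 32 CCT7 footprints in the stretch, with 95% Wilson intervals of 14.2% to 44.4% and 13.3% to 42.1%, which cover counting error only. This measure was chosen after its values were seen and was not tested.

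The shift was common to other genes. Among 75 other genes with such a shorter entry, beginning at codon 31 to 60 and with at least 100 footprints at each dose, 94.7% had a larger share ahead of it at 0.3 µM than under DMSO and 97.3% at 3 µM. Their median share went from 7.82% with DMSO to 21.4% at 0.3 µM and 28.6% at 3 µM. Summed over libraries, the rise at 3 µM was 27.8 percentage points for CCT2 (78.7th percentile of those genes), 20.3 for CCT7 (57.3rd), 14 for CCT5 (45.3rd) and 11.2 for CCT3 (40.0th).

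Counting these genes by their shorter entries changed the call for CCT2. CCT2 then fell by 0.28 (log2, SE 0.10, adjusted p = 0.0179) at 0.3 µM and by 0.56 (SE 0.11, adjusted p = 4.34e-05) at 3 µM. The 75 other genes shifted by a median of -0.19 and -0.29 under the same change of entry, while the remaining genes kept their full entries. CCT3 and CCT5 still rose and CCT7 still fell.

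**Figure D5:**
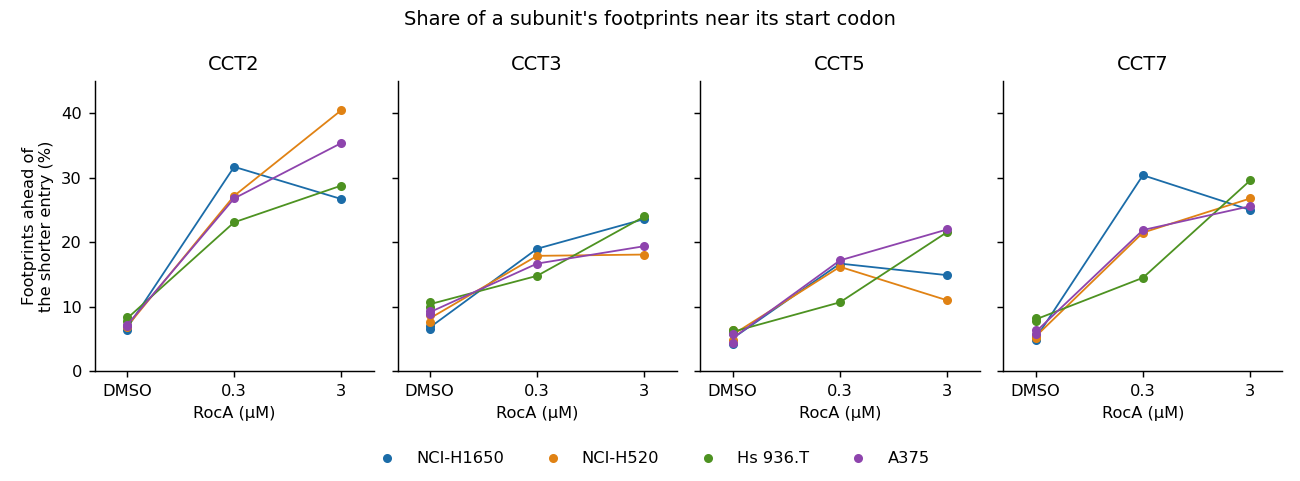
Share (percent) of the footprints of CCT2, CCT3, CCT5 and CCT7 that lay ahead of the part counted by the shorter entry, near the start codon, by RocA dose; points are libraries and colours lines. DMSO libraries lie between 4.29% and 10.8% and RocA libraries between 10.7% and 40.5%.

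Likeness between genes was described by Pearson's r of log2 CPM, centred on each line's mean, over the 16 libraries. These fall into DMSO and RocA libraries and share their depth, so r mostly follows the response to RocA. Of the 28 pairs of subunits, 16 had r above 0, with a median of 0.10. The closest pairs were CCT3 with CCT5 (0.99), CCT3 with CCT8 (0.98) and CCT4 with CCT7 (0.97), and the most opposed were CCT7 with CCT3 and with CCT5 (both -0.94).

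Outside the family, among 5249 genes, CCT3 had a close likeness to COX4I1 (r = 0.994), a respiratory chain subunit. CCT5 was most like RRM2, a subunit of ribonucleotide reductase, and EIF3C, an initiation factor subunit (both 0.994), and CCT8 like NOLC1 (0.987) and EMG1 (0.986), both of ribosome biogenesis. CCT4 followed EIF4G2 (0.983), an eIF4G-related initiation factor, and H2AFY (0.981), a histone variant, and CCT7 followed SEPT11 (0.991), a septin, and HACD3 (0.989). CCT6A was most like CCNG1 (0.979) and SLC16A7 (0.978), TCP1 like RFC1 (0.912) and ZNF850 (0.900), and CCT2 like G2E3 (0.881) and PDP1 (0.854). The genes like CCT4, CCT7 and CCT6A had fitted changes further below 0 than the subunit itself at both doses, such as EIF4G2 with -1.76 and -1.99 against -0.92 and -1.02 for CCT4.

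Genes that work with TRiC were mixed as well. Of 10 genes of prefoldin and TRiC cofactors, 2 could be named: PFDN5, a prefoldin subunit, rose by 1.31 ± 0.11 at 0.3 µM and 1.32 ± 0.11 at 3 µM (log2, SE), and TXNDC9, a phosducin-like cofactor, fell by 0.78 ± 0.15 and 0.53 ± 0.17. Of 22 known clients, 13 were named. At each dose 2 of these rose and 7 fell, with median log2 changes of -0.72 and -0.84, beside 27.1% higher, 31.5% lower and a median of -0.08 over all genes at 0.3 µM, and 24.6%, 30.2% and -0.15 at 3 µM.

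The actin and tubulin clients did not move one way, and those given here were named after their values were seen. ACTG1 (gamma actin) rose by 0.91 ± 0.10 and 0.75 ± 0.10 and TUBA1C (an alpha tubulin) by 0.88 ± 0.10 and 0.69 ± 0.10 at 0.3 and 3 µM. TUBB, a beta tubulin, fell by 0.48 ± 0.10 (adjusted p = 7.93e-05) and 0.35 ± 0.10 (adjusted p = 0.00403), and TUBB6, another beta tubulin, was at 0.30 ± 0.14 and 0.15 ± 0.15 without passing the threshold (adjusted p = 0.0601 and 0.411). The largest falls at 0.3 µM were those of GNB1, a G protein beta subunit with WD40 repeats (-2.53 ± 0.35), RPTOR, the mTORC1 scaffold (-1.71 ± 0.28), and FZR1, an activator of the anaphase-promoting complex (-1.39 ± 0.32). At 3 µM they were those of GNB1 (-2.90 ± 0.42), GNB2 (-1.58 ± 0.17) and RPTOR (-1.27 ± 0.31). Between the doses 1 client was called, MLST8 of the mTOR complexes, lower by 1.31 ± 0.37 at 3 µM (adjusted p = 0.0411), which was named after its values were seen.

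Of 22 other cytosolic chaperones and co-chaperones 11 were named, of which 2 rose and 6 fell at 0.3 µM and 3 rose and 5 fell at 3 µM, beside the same shares of all genes. Their median log2 changes were -0.74 and -0.50. Those that rose, named after their values were seen, were the HSP90 genes HSP90AA1 (0.89 ± 0.10 and 0.79 ± 0.10) and HSP90AB1 (0.32 ± 0.10 and 0.46 ± 0.10) at both doses and HSPA8, the constitutive HSP70, at 3 µM (0.29 ± 0.10). HSPH1, a nucleotide exchange factor of HSP70, fell by 1.86 ± 0.16 and 1.48 ± 0.16. FKBP5, an HSP90 co-chaperone, was at -1.77 ± 0.59 (adjusted p = 0.00907) at 0.3 µM and -0.50 ± 0.48 at 3 µM (adjusted p = 0.381). Lower at both doses were DNAJB6, an HSP40 protein (-1.22 ± 0.16 at 0.3 µM and -0.82 ± 0.16 at 3 µM), and AHSA1, which activates the HSP90 ATPase (-0.98 ± 0.14 and -1.19 ± 0.16). HSPA4 was also lower at both (-0.83 ± 0.11 and -0.94 ± 0.12). HSPD1, the subunit of the mitochondrial chaperonin, rose by 0.55 ± 0.10 and 0.64 ± 0.10, and its partner HSPE1 and the heat shock factors HSF1 and HSF2 could not be named.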

How the data were processed

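The deposited files give, per transcript entry, the authors' raw footprint count and the number of codons counted, with no normalization. Per the submitters' processing notes, CASAVA 1.8, Bowtie2 2.1.0, TopHat2 2.0.9 and hg38 were used; the annotation release behind the identifiers and which codons were left out are not given in the sources used here. Of 182398 entries, 88482 were noncoding and held no counts.

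Genes were named by matching coding lengths (codons less 10) of neighbouring entries to GENCODE 29. A match needed a score of at least 14 (natural log of the odds over chance) and odds of 100 over the next best place; 13 decoy genes with shifted lengths passed (0.0638%), 253 genes with contested entries were dropped, and 0 named genes lay off their neighbours' chromosome. The members and lists were chosen with earlier results of these data known. Named were all subunits, per list up to 3 called genes with the largest change at each dose and at least 10 CPM, HSPD1 and HSPE1, and per subunit the 2 genes with the highest r, of which 1 is not reported here.

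Counts were fitted in R 4.3.3 with edgeR 4.0.16 (TMM, filterByExpr with a minimum count of 10, robust quasi-likelihood, terms for line and dose, the 4 lines being the replicates of a dose), with Benjamini-Hochberg adjustment over all 5297 genes (6300 between lines under DMSO), 2-sided, called at 0.05. The test of response by line had a treated term per line and a common term for dose. In each fit of RocA the spread came from all libraries, DMSO pairs of a line included. CPM use TMM-scaled totals, and log2 CPM a prior count of 2. DESeq2 1.42.0, other scaling and filters, thinned counts, other entries and left-out libraries were alternatives. The fits were also run on simulated data with a common spread and few changed genes. That setting is simpler than these data, so it says little about the fits here. Python 3.11.15 with pandas 2.3.3, SciPy 1.17.1 and matplotlib 3.10.9 did the naming, 5′ UTR runs and plots. The variance between DMSO replicates of a line was 1.45 to 2.36 times that of counting error (chi-square per degree of freedom).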

Additional observations from a re-analysis of the deposited data

Results flagged for a closer look

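At 0.3 µM the rise of CCT5 in Hs 936.T (1.13, log2 CPM against the mean of its DMSO libraries) lay apart from the other lines, which were at 1.28 to 1.31; the gap passed Dixon's 95% critical value for 4 values. Of the 16 such sets of 4 lines, this was the only one to pass, and chance passes about 1 in 20. The response of TCP1 differed between the lines (edgeR F test over the 4 lines, adjusted p = 0.0384), with rises at 0.3 µM of 0.34 and 0.35 in the lung lines against -0.53 in Hs 936.T and -0.05 in A375.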

How the results depend on the processing

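Leaving out each library in turn gave 3 subunits higher and 3 lower at 0.3 µM, 3 and 4 at 3 µM, and 0 and 1 between doses in all 16 settings. Scaling to library totals gave 5 lower at 0.3 µM, with CCT2 at -0.21 and TCP1 at -0.26, and counting by shorter entries, chosen after seeing the data, put CCT2 at -0.28. Scaling to totals moved the median of all genes by -0.26, about as far as CCT2 and TCP1 moved. The subunits whose response differed between lines numbered 0 to 2 without single libraries, 0 without the line NCI-H520 and 2 with DESeq2. DESeq2, no filter and thinning to the smallest library of each line changed no other count of calls by more than 1.5 times. With a replicate block, which the DMSO numbers do not warrant (r of deviations -0.03 to 0.10 between lines), the subunits called between pairs of lines were 8, 6, 8, 6, 6 and 6, against 8, 7, 8, 6, 6 and 6. Without single DMSO libraries these counts were 8, 6 to 7, 7 to 8, 4 to 7, 4 to 6 and 4 to 6. Depth limits the 3 µM library of NCI-H1650 most, with 44799 footprints and 15 to 154 per subunit.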
